A study of Mus musculus with 4 samples.

Results

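The genes described here are the core of the TGF-β pathway in the tibialis anterior (TA) muscle: the ligands Tgfb1, Tgfb2 and Tgfb3, the receptors Tgfbr1 and Tgfbr2, the receptor-activated Smads Smad2 and Smad3, the inhibitory Smad Smad7, and Ccn2, a matricellular target gene. They were selected by symbol, with earlier results of these data known, and all 9 were found among the 13825 genes of the count table. RNA-seq was run on TA muscle of adult male mice, WT (C57BL/6J) or lacking Fgf21 in the whole body (Fgf21KO), 14 days after the left sciatic nerve was cut. WT mice gave the sham group WS and the denervated group WD, and Fgf21KO mice gave KS and KD, so that there were 4 groups. Each group was 1 library made from 4 pooled muscles, so the spread between animals could not be seen. The labels name the right leg, left innervated, as the control, while the study's methods describe the same operation without transection on the contralateral leg, and the removed length of nerve differs between these sources. As Fgf21 was removed from every tissue, these libraries cannot tell the muscle's own Fgf21 from that of other organs. Fgf21 itself was not analysed here. The genotype labels behind every comparison of WT with Fgf21KO were therefore not verified by its level.

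TGF-β ligands are secreted bound to a latency peptide and held in the matrix until they are activated. The active ligand binds TGFBR2, which recruits and phosphorylates TGFBR1, and TGFBR1 in turn phosphorylates SMAD2 and SMAD3, which enter the nucleus with SMAD4. SMAD7 is induced by the pathway and blocks the activated receptor. In skeletal muscle the pathway is known for fibrosis, for restraining satellite cells and, together with related ligands that also act through SMAD2 and SMAD3, for limiting fibre size.

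After denervation, Tgfb1 and its signalling receptor Tgfbr1 rose in TA muscle, 3.96-fold and 3.26-fold over the 4 libraries, and in each genotype they were more than 3-fold higher. Tgfb3, Tgfbr2, Smad2 and Smad3 were higher by 1.27-fold to 1.59-fold, Tgfb2 hardly differed, and the inhibitor Smad7 and the target Ccn2 were lower. None of the 9 genes differed by 2-fold between WT and Fgf21KO, in either sham or denervated muscle. Few of all genes did, at 2.04% in sham and 1.55% in denervated muscle. The plot of levels by library shows the values of the 9 genes.

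**Figure D1:**
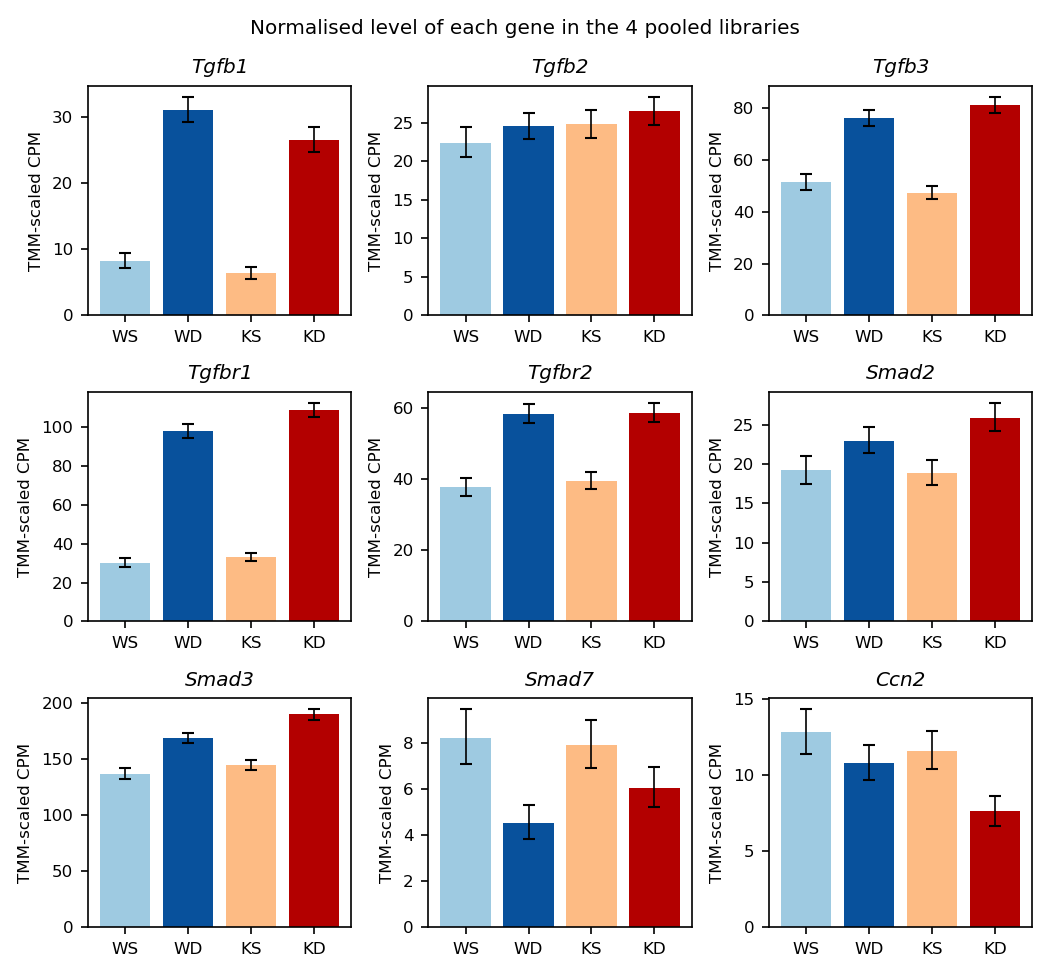
Level of each of the 9 genes in the 4 libraries, as TMM-scaled CPM on axes that start at 0, with 1 bar per library and the 95% counting interval of that library as the error bar. WD and KD stand far above WS and KS for Tgfb1 and Tgfbr1 and lie below them for Smad7 and Ccn2.

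Total counts per library ran from 25249879 in WS to 34141303 in KS, and the smallest count of any of the 9 genes was 148 (Smad7 in WD). Levels are given as CPM, the count divided by the TMM-scaled library size in units of 1e+06 reads, a scaling that sets most genes to a common level. Mitochondrially encoded genes took 27.3% of the counts in WS and 30.8% in KS but 19.6% in WD and 20.8% in KD. The denervation labels were checked with the 4 of 8 listed genes of denervated muscle that were analysed (Ncam1, Runx1, Gadd45a and Hdac4), each of which rose and whose summed level was 84.2 CPM (WS) and 1264 (WD) in WT and 78.5 (KS) and 1288 (KD) in Fgf21KO. Of 12 muscle fibre markers, 4 were analysed, and they summed to 31336 CPM or more in every library. With 1 library per group, a comparison of 2 libraries has no test, and a gene is counted as differing at 2-fold or more, with 95% intervals that cover counting error only. Tests come from edgeR's quasi-likelihood model with additive terms for denervation and genotype over the 4 libraries, in which a gene was called at a Benjamini-Hochberg adjusted p below 0.05 and at least 2-fold. In that model each genotype serves as the repeat of the other, and its p-values do not measure the spread between animals.

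Tgfb1, on chromosome 7, encodes the best studied ligand of the family, which is made by immune, stromal and muscle cells. Its count was 191 in sham and 1014 in denervated muscle of WT, 190 and 821 in those of Fgf21KO, or 8.22, 31.1, 6.40 and 26.5 CPM. Both denervated libraries stood far above both sham libraries. The sham counts were nearly equal, but KS was the deeper library and its CPM was lower than that of WS. The log2 ratio was 1.91 in WT (WD over WS, 95% counting interval 1.69 to 2.15) and 2.04 in Fgf21KO (KD over KS, 1.82 to 2.29). Among all 13084 genes tested, these ratios lay at the 98.1 and 98.4 percentiles. In the additive model Tgfb1 rose by a log2 fold change of 1.98 (edgeR quasi-likelihood test, adjusted p = 2.77e-14). Because bulk RNA was measured, a change in the number of cells of a type and a change in RNA per cell cannot be told apart. This holds for rises and falls, here and in every result that follows.

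Tgfb2, on chromosome 1, is a ligand with prominent roles in development. It was at 22.4 CPM in WS against 24.6 in WD, and 24.8 in KS against 26.5 in KD, so the sham and denervated ranges overlapped. WD over WS had a log2 ratio of 0.13 (-0.03 to 0.30) and KD over KS one of 0.09 (-0.05 to 0.24). The additive fold change was 1.08-fold (edgeR quasi-likelihood test, adjusted p = 0.356), and both counting intervals lie well below a 2-fold difference.

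Tgfb3, on chromosome 12, encodes a ligand linked to palate formation and scarless repair. Its level was 51.4 CPM (WS) and 76.1 (WD) in WT and 47.3 (KS) and 81.1 (KD) in Fgf21KO. The denervated libraries did not overlap the sham libraries. On the log2 scale WD exceeded WS by 0.56 (0.47 to 0.67) and KD exceeded KS by 0.78 (0.68 to 0.87). Tgfb3 passed the adjusted p in the additive model but not the fold threshold, at 1.59-fold (edgeR quasi-likelihood test, adjusted p = 3.60e-08).

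The makeup of the ligand pool therefore differed between sham and denervated muscle. Tgfb1 gave 10.02% of the counts of the 3 ligands in WS (exact binomial 95% interval 8.71 to 11.5) and 23.6% in WD (22.3 to 24.9). In Fgf21KO it gave 8.14% in KS (7.07 to 9.33) and 19.8% in KD (18.6 to 21.0). Tgfb2 went the other way, from 27.3% to 18.6% in WT and from 31.6% to 19.7% in Fgf21KO. Tgfb3 held most of the ligand counts in every library, between 57.8% and 62.7%. These shares are of counts, which also depend on gene length. The summed level of the 3 ligands was 82.0 CPM in WS and 132 in WD, 1.61 times higher, and it was 78.5 CPM in KS and 134 in KD, 1.71 times higher.

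**Figure D2:**
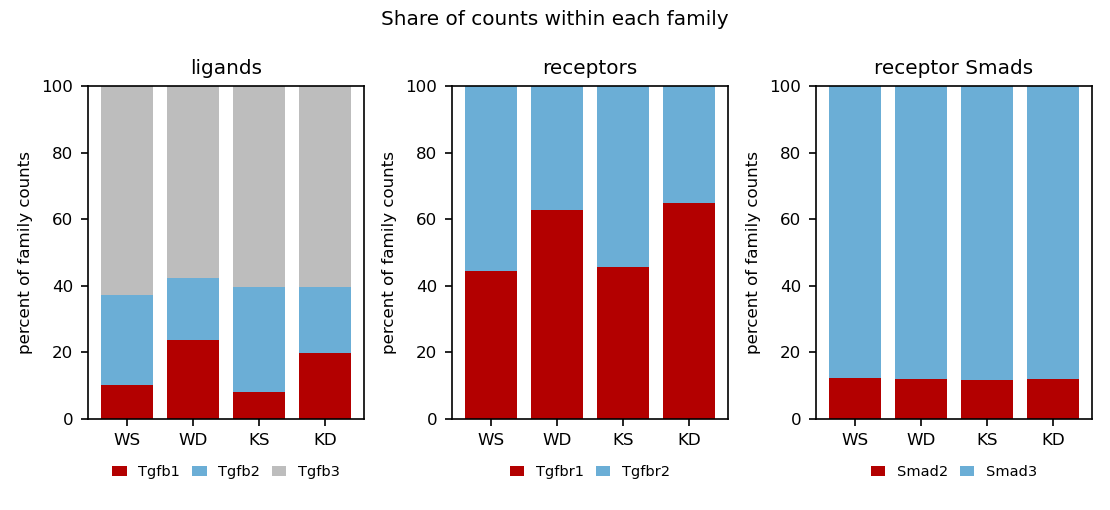
Percent of counts (y axis) that each gene gave within the ligands, the receptors and the receptor-activated Smads, with 1 stacked bar for each of the 4 libraries. The red parts for Tgfb1 and Tgfbr1 are larger in WD and KD, and that for Smad2 hardly differs between libraries.

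Tgfbr1, on chromosome 4, encodes the type I receptor kinase that phosphorylates SMAD2 and SMAD3. Its count was 703 in sham and 3196 in denervated muscle of WT, 980 and 3359 in those of Fgf21KO, or 30.3, 97.9, 33.0 and 109 CPM. Sham and denervated libraries were widely separated, and the genotypes lay close to each other within each surgery. In WT its log2 ratio (WD over WS) was 1.69 (1.58 to 1.81), and in Fgf21KO (KD over KS) it was 1.72 (1.62 to 1.82). Tgfbr1 rose in the additive model by a log2 fold change of 1.71 (edgeR quasi-likelihood test, adjusted p = 6.36e-17).

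Tgfbr2, on chromosome 9, encodes the type II receptor that binds the ligand first. It was at 37.8 CPM in WS against 58.3 in WD, and 39.5 in KS against 58.6 in KD. The pair of denervated libraries differed by less than 1 CPM and both lay above the sham libraries. WD over WS had a log2 ratio of 0.62 (0.51 to 0.74) and KD over KS one of 0.57 (0.46 to 0.68). Its additive fold change of 1.51-fold passed the adjusted p but not the fold threshold (edgeR quasi-likelihood test, adjusted p = 4.24e-07).

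The balance of the receptors followed from these values. Tgfbr1 gave 44.5% of the counts of both receptors in WS (42.0 to 47.0) and 62.7% in WD (61.3 to 64.0), and 45.5% in KS (43.4 to 47.6) and 65.0% in KD (63.6 to 66.3). Tgfbr2 thus held most receptor counts in sham muscle and the smaller part in denervated muscle, in both genotypes. These counts also depend on gene length. Per kilobase of exon, Tgfbr1 and Tgfbr2 were within counting error of each other in sham muscle. They stood at 4.63 and 4.62 CPM per kilobase in WS and 5.05 and 4.82 in KS, so Tgfbr2 was not the higher per length. Summed over both receptors, the level was 68.1 CPM (WS) and 156 (WD) in WT and 72.5 (KS) and 167 (KD) in Fgf21KO.

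The bases just upstream of the start of 4 of these genes are printed because the ligand and the receptor that rose could be set beside the ligand and the receptor that did not pass 2-fold. RefSeq windows (GRCm38.p6) were matched for 5 of the 9 genes, Tgfb1, Tgfb2, Tgfbr1, Tgfbr2 and Smad3, and 250 bases before the start are shown on the gene's strand. Capitals mark GGGCGG (the GC box bound by SP1 family factors), TATAAA (bound by the TBP factor) and CAGAC (the core of a Smad element), each searched on both strands, so that a GC box on the other strand reads CCGCCC. No marked words overlap.
Tgfb1, chr7:25686752-25687001, plus strand: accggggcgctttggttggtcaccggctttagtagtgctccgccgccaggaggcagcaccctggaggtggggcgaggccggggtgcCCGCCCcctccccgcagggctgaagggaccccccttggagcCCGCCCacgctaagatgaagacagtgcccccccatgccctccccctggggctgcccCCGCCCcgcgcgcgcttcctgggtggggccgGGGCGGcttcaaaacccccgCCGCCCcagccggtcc
Tgfbr1, chr4:47352972-47353221, plus strand: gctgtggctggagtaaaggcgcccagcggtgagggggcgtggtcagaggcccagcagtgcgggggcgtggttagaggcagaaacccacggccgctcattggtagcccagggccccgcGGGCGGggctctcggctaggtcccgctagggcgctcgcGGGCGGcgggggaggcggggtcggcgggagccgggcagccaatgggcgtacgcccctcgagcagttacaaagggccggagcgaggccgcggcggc
Tgfb2, chr1:186705990-186706239, minus strand: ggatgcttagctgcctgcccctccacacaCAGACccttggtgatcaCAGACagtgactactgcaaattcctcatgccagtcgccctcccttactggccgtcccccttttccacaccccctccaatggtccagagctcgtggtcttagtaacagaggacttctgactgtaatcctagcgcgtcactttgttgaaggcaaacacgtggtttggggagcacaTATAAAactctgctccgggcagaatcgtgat
Tgfbr2, chr9:116175364-116175613, minus strand: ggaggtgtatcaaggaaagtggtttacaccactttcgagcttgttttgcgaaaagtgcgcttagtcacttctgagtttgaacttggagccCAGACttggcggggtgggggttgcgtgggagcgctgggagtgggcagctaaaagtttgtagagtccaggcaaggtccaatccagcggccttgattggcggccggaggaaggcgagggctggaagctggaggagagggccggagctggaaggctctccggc

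The windows of the 2 genes that rose were both rich in G and C. The Tgfb1 window was 75.2% GC with 5 GC boxes, beginning 164, 123, 67, 36 and 16 bases before the start, and no TATAAA. The first Tgfbr1 window was 74.8% GC with 2 GC boxes and no TATAAA, and a second RefSeq window of Tgfbr1, at chr4:47385966-47386215, was 52.8% GC. Among 32851 windows of all genes the median was 52.4% GC and the 90th percentile 69.2%, GGGCGG was present in 32.7%, and 5 or more copies in 1.93%. Smad3, which did not pass 2-fold, had 69.2% GC and 2 GC boxes, so high GC was not particular to the genes that rose.

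The Tgfb2 window differed in kind, at 53.6% GC with TATAAA beginning 31 bases before the start, a word present in 12.4% of windows. It also held 2 copies of CAGAC, a number reached by 11.7% of windows, and 167 of its bases overlap an exon of the antisense gene Gm29491. The Tgfbr2 window was 58.4% GC and held 1 CAGAC, a word present in 42.2% of windows. The AP-1 word TGANTCA and the RUNX word TGTGGT were found in none of the windows of these 5 genes, and occur in 6.75% and 14.0% of all windows. The second Tgfbr1 window also held 1 CAGAC, beginning 203 bases before its start, so the word was not limited to genes that did not pass 2-fold. The E-box CANNTG, present in 66.2% of windows, was found in the Tgfb2 window and in the second Tgfbr1 window. These matches describe letters only, as binding was not measured.

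Smad3, on chromosome 9, carries the receptor signal to the nucleus and was the most abundant of the 9 genes. Its level was 137 CPM in sham and 168 in denervated muscle of WT, 144 and 189 in those of Fgf21KO. The denervated libraries were above the sham libraries, by 0.30 on the log2 scale in WT (0.24 to 0.36) and by 0.39 in Fgf21KO (0.34 to 0.45). The additive fold change was 1.27-fold, below the fold threshold (edgeR quasi-likelihood test, adjusted p = 0.000147).

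Smad2, the close relative of Smad3 on chromosome 18, was at 19.2 CPM in WS against 23.0 in WD, and 18.9 in KS against 25.9 in KD. On the log2 scale WD exceeded WS by 0.26 (0.09 to 0.43) and KD exceeded KS by 0.46 (0.30 to 0.62). The additive fold change was 1.29-fold, below the fold threshold (edgeR quasi-likelihood test, adjusted p = 0.00506). Of the counts of both receptor-activated Smads, Smad2 gave 12.3% in WS and 12.03% in WD against 11.6% in KS and 12.04% in KD, so their ratio was nearly the same in all 4 libraries. Their summed level was 1.23 times higher in WD than in WS and 1.32 times higher in KD than in KS, a smaller difference than that of the ligands or the receptors.

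Smad7, on chromosome 18, encodes the inhibitor that SMAD3 itself induces. Its count was 191 (WS) and 148 (WD) in WT and 235 (KS) and 187 (KD) in Fgf21KO, or 8.22, 4.53, 7.91 and 6.05 CPM. Both denervated libraries were below both sham libraries, and WD was the lowest. The log2 ratio of WD over WS was -0.85 (-1.18 to -0.54), and that of KD over KS was -0.38 (-0.67 to -0.11). In the additive model the log2 fold change was -0.61, which passed the adjusted p but not the fold threshold (edgeR quasi-likelihood test, adjusted p = 0.00438). Set against Smad3, Smad7 gave 5.67% of their counts in WS (4.92 to 6.51) but 2.62% in WD (2.22 to 3.08), and 5.21% in KS (4.58 to 5.89) but 3.09% in KD (2.67 to 3.56).

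Ccn2, on chromosome 10, encodes connective tissue growth factor, a secreted protein widely used as a readout of TGF-β and of YAP activity. Its count was 298 in sham and 353 in denervated muscle of WT, 345 and 236 in those of Fgf21KO, or 12.8, 10.8, 11.6 and 7.63 CPM. KD was well below the other libraries, which lay close together. The log2 ratio of WD over WS was -0.25 (-0.47 to -0.02), and that of KD over KS was -0.60 (-0.85 to -0.36). The WT ratio was 0.04 when libraries were scaled by their totals alone, a scaling that placed the median gene at 0.29. Over the 4 libraries the log2 fold change was -0.42, below the fold threshold (edgeR quasi-likelihood test, adjusted p = 0.0123). Of the exon bases of Ccn2, 23.2% overlap the antisense gene Gm15270, and whether the counting used strand is not given in the sources used here.

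Over the 9 genes, 2 were at least 2-fold higher after denervation and 0 lower in each genotype, where 7.18% of all genes were 2-fold higher and 7.61% lower in WT, and 7.51% higher and 6.1% lower in Fgf21KO. Their median log2 ratio was 0.30 for WT and 0.46 for Fgf21KO, against 0.01 over all genes in each. In the additive model 2 of 9 were called, where 13.1% of all genes were called, and 8 of 9 had an adjusted p below 0.05 at any size, where 53.5% of all genes did (edgeR quasi-likelihood test, Benjamini-Hochberg adjustment). For 6 of the 9 genes both denervated libraries lay above both sham libraries, as did 38.1% of all genes, and for 2, Smad7 and Ccn2, they lay below, as did 36.7%. Differences of one sign across the 4 libraries were thus common among all genes, while the size of those of Tgfb1 and Tgfbr1 was not, with Tgfbr1 at the 97.5 percentile in WT.

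**Figure D3:**
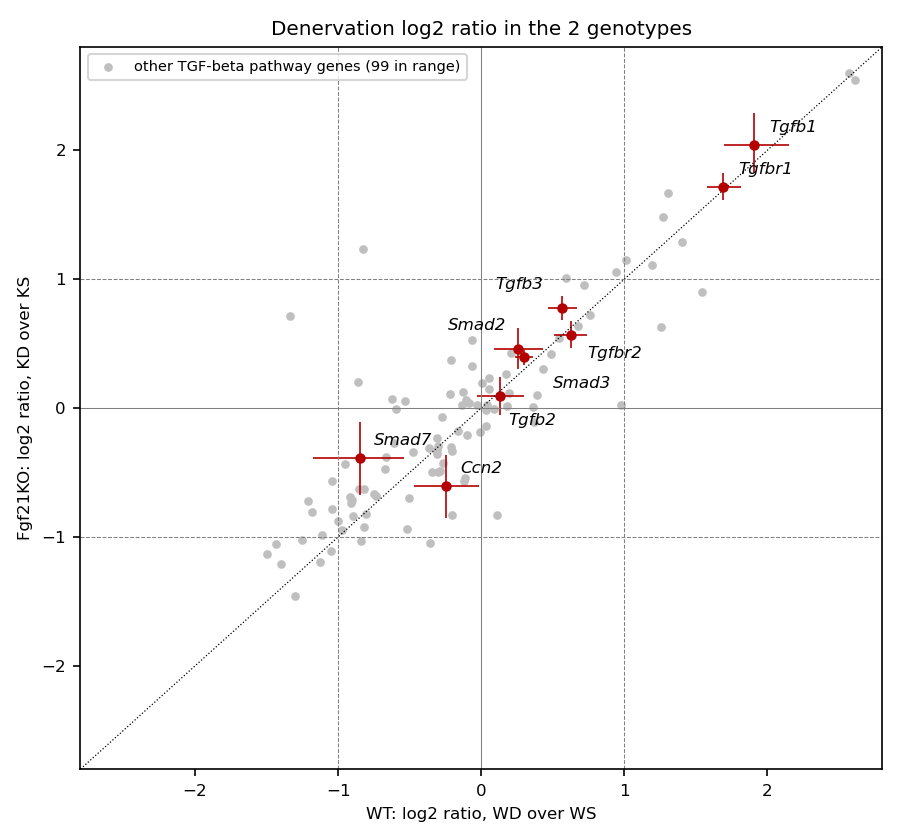
Log2 ratio of denervated over sham muscle in Fgf21KO (y axis, KD over KS) against WT (x axis, WD over WS), with the 9 genes in red with 95% counting intervals and the other listed genes of the TGF-β pathway within the axis range in grey. Dashed lines mark 2-fold, which only Tgfb1 and Tgfbr1 of the red points pass, and on the dotted line both genotypes have the same ratio.

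The comparison of genotypes asks whether loss of Fgf21 alters the pathway at rest or after denervation. None of the 9 genes was 2-fold apart between KS and WS, where 2.04% of all genes were, nor between KD and WD, where 1.55% were. In the additive model 0 of 9 were called for genotype, where 0.176% of all genes were, and 0 had an adjusted p below 0.05, where 0.673% did (edgeR quasi-likelihood test). At an unadjusted p below 0.05 there were 2, Tgfb1 and Ccn2, where 7.93% of all genes passed, and DESeq2's Wald test called 0.

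Tgfb1 was lower in Fgf21KO in both surgeries, by a log2 ratio of -0.36 in sham muscle (KS over WS, -0.66 to -0.06) and -0.23 in denervated muscle (KD over WD, -0.36 to -0.09). The additive genotype effect was -0.28, which did not pass the correction (edgeR quasi-likelihood test, unadjusted p = 0.0254, adjusted p = 0.499). Ccn2 had a ratio of -0.14 in sham muscle (-0.37 to 0.09) and -0.50 in denervated muscle (-0.75 to -0.26), the latter at the 3.80 percentile of all genes. Its additive effect of -0.32 did not pass the correction either (edgeR quasi-likelihood test, unadjusted p = 0.0304, adjusted p = 0.535). Smad7 was close between the sham libraries, at -0.05 (-0.34 to 0.23), and higher in KD than in WD by 0.41 (0.10 to 0.74). Tgfbr1 differed by 0.12 in sham muscle (-0.02 to 0.27) and by 0.15 in denervated muscle (0.08 to 0.22), and Tgfbr2 by 0.06 (-0.06 to 0.19) and 0.01 (-0.09 to 0.10), so counting error alone leaves room for less than 1.5-fold at both receptors.

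The difference between the genotypes in the denervation log2 ratio, Fgf21KO minus WT, had no test, because the additive model uses it as its only residual. It was 0.13 for Tgfb1 (-0.18 to 0.45) and 0.02 for Tgfbr1 (-0.13 to 0.18), so the counting intervals of both include 0. Those of Smad7 (0.46, 0.05 to 0.89), Tgfb3 (0.21, 0.07 to 0.35), Smad3 (0.09, 0.01 to 0.18) and Ccn2 (-0.36, -0.69 to -0.03) did not include 0. None of the 9 differences reached 2-fold, where 4.11% of all genes did, and for Smad7, Ccn2, Tgfb3 and Smad2 the difference was larger in size than the median absolute difference over all genes of 0.174. These comparisons share libraries and are not independent of each other.

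Levels can be compared between genes only per length, so CPM was divided by the merged exon length of each gene (GENCODE M21, GRCm38). On this scale Smad3 was the highest in each library, from 24.7 CPM per kilobase in WS to 34.2 in KD, followed by Tgfb3, from 14.0 in KS to 24.0 in KD, and Tgfbr1. In WS, Tgfbr1, Tgfbr2, Ccn2 and Tgfb2 lay between 3.87 and 4.63 CPM per kilobase, each neighbour within counting error of the next, and Smad2, Smad7 and Tgfb1 followed at 2.19, 1.82 and 1.63. After denervation Tgfbr1 stood clear of Tgfbr2, at 15.0 against 7.12 in WD and 16.6 against 7.16 in KD. Tgfb1 moved from the last place in KS, and in WS from a last place within counting error of Smad7, to the fifth in WD, at 6.16, and in KD, at 5.26, while Smad7 was the last in both denervated libraries, at 1.003 and 1.34. Ccn2 and Smad2 were within counting error of each other in KD, at 2.67 and 2.95. Tgfb1's place depends on the annotation, since its merged exons span 5042 bases in the comprehensive set but 2175 in the basic set, which gives 3.78 CPM per kilobase in WS and 14.3 in WD and puts it in the seventh place in both sham libraries and the fourth in both denervated libraries.

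The other genes of the pathway were taken in 5 lists written by role, of which 101 genes were tested. In the additive model 11 rose and 9 fell after denervation, 19.8% of them, where 6.84% of all genes rose and 6.24% fell, and 0 were called for genotype (edgeR quasi-likelihood test). For genotype, 16 of the 101 had an unadjusted p below 0.05, where 7.93% of all genes did, and DESeq2 called 0. Fn1, the matrix protein fibronectin, named after its values were seen, was the 1 listed gene with an adjusted p below 0.05 for genotype at any size, at a log2 fold change of -0.40 (edgeR quasi-likelihood test, adjusted p = 0.0149). The median log2 fold change of denervation over the 101 genes was -0.27, against 0.01 over all genes and 0.36 over the 9 core genes.

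**Figure D4:**
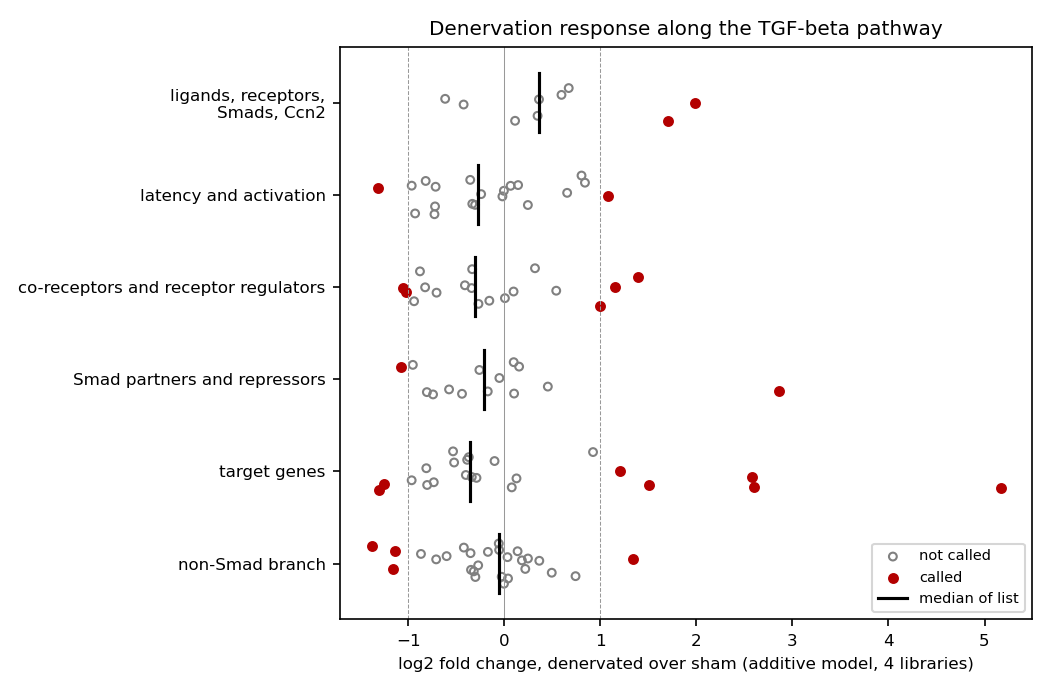
Additive denervation log2 fold change over the 4 libraries (x axis) for the 9 genes and for each gene of the 5 pathway lists, 1 point a gene, with called genes in red, dashed lines at 2-fold and a bar at each list median. The medians of the 5 lists lie between -0.35 and -0.06, below the 0.36 of the 9 genes.

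Of 20 genes that hold or release the latent ligand, 1 rose and 1 fell. That is 5% each, near the 6.84% of all genes that rose and the 6.24% that fell. Ltbp3, a latent TGF-β binding protein that aids secretion of the ligand, rose by a log2 fold change of 1.08 (edgeR quasi-likelihood test, adjusted p = 4.67e-13). Ltbp4, a binding protein that anchors the latent complex to elastic fibres, fell by 1.32 on the log2 scale (edgeR quasi-likelihood test, adjusted p = 8.13e-14). Thbs1, an activator of latent TGF-β, was at 0.84 and Fmod, a small proteoglycan that binds the ligand, at -0.96, and neither passed the fold threshold (edgeR quasi-likelihood test, adjusted p = 1.10e-04 and 5.56e-11). The median over the 20 was -0.27.

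Of 18 co-receptors and receptor regulators, 3 rose and 2 fell, with a median of -0.30. Those were 16.7% and 11.1% of the list, against 6.84% and 6.24% of all genes. The deubiquitinase Usp11 rose by a log2 fold change of 1.40 and Hgs, an endosomal sorting protein that brings Smads to the receptor, by 1.15 (edgeR quasi-likelihood test, adjusted p = 1.17e-06 and 3.06e-12). The co-receptor Eng, which is abundant on endothelial cells, fell by 1.05 and the pseudoreceptor Bambi fell by 1.02 (edgeR quasi-likelihood test, adjusted p = 5.54e-11 and 0.00542). Tgfbr3, the betaglycan co-receptor that presents ligand to TGFBR2, was named after its values were seen, and its rise of 1.001 lay at the fold threshold, with a log2 ratio of 0.94 in WT (edgeR quasi-likelihood test, adjusted p = 9.17e-11).

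Of 14 Smad partners and repressors, 1 rose and 1 fell, with a median of -0.21. That is 7.14% each, near the 6.84% of all genes that rose and the 6.24% that fell. Tgif1, a homeodomain repressor of Smad transcription, had counts of 73 in WS against 658 in WD, and 83 in KS against 708 in KD and rose by a log2 fold change of 2.86 (edgeR quasi-likelihood test, adjusted p = 1.14e-15). Ppm1a, a phosphatase that removes the activating phosphates of SMAD2 and SMAD3, fell by 1.08 (edgeR quasi-likelihood test, adjusted p = 1.74e-13). Skil, a repressor induced by the pathway, was at 0.45 and the inhibitory Smad6 at -0.95, and neither passed the fold threshold (edgeR quasi-likelihood test, adjusted p = 2.95e-04 and 9.78e-05).

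Of 22 target genes besides Ccn2, 5 rose and 2 fell, and the median was -0.35. Those were 22.7% and 9.09% of the list, against 6.84% and 6.24% of all genes. Cdkn1a, the cell cycle inhibitor p21, had counts of 175 (WS) and 11926 (WD) in WT and 338 (KS) and 9971 (KD) in Fgf21KO, and rose by a log2 fold change of 5.17 (edgeR quasi-likelihood test, adjusted p = 2.06e-24). Junb, an AP-1 subunit, rose by 2.60 (edgeR quasi-likelihood test, adjusted p = 3.91e-17). The contractile genes Acta2 and Tagln, which mark smooth muscle and myofibroblasts, fell by 1.31 and 1.25 (edgeR quasi-likelihood test, adjusted p = 8.16e-12 and 6.07e-10). Ccn1, a relative of Ccn2 named after its values were seen, had counts of 356 in sham and 3069 in denervated muscle of WT, 497 and 3034 in those of Fgf21KO, and rose by 2.58 where Ccn2 did not (edgeR quasi-likelihood test, adjusted p = 2.99e-20). The remaining genes that rose were Myc, by 1.51, and Lox, by 1.20, also named after their values were seen (edgeR quasi-likelihood test, adjusted p = 4.89e-09 and 1.19e-07). Cdkn1a, Junb and Myc respond to many inputs besides TGF-β.

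Mmp9, Postn and Snai1, of 101 listed genes tested, were at least 2-fold apart between genotypes, in sham muscle, where 2.04% of all genes were. Mmp9 had counts of 24, 18, 7 and 20 and Snai1 of 8, 30, 31 and 51 in WS, WD, KS and KD, so their ratios rest on few reads and Postn alone remains when a mean count of 50 is required. Postn, a matricellular protein of fibroblasts, had counts of 1232 (WS) and 685 (WD) in WT and 558 (KS) and 955 (KD) in Fgf21KO, with WS the highest.

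Of 27 genes of the non-Smad branch, 1 rose and 3 fell, with a median of -0.06. Those were 3.70% and 11.1% of the list, against 6.84% and 6.24% of all genes. Jun, an AP-1 subunit that the study followed, had counts of 1823 in sham and 6789 in denervated muscle of WT, 2761 and 7005 in those of Fgf21KO and rose by a log2 fold change of 1.34 (edgeR quasi-likelihood test, adjusted p = 2.34e-15). Tab2, an adaptor of the kinase TAK1, fell by 1.38 and Mapk14, the p38α kinase, fell by 1.16 (edgeR quasi-likelihood test, adjusted p = 1.35e-15 and 5.54e-14). Map2k6, a kinase that activates p38 and was named after its values were seen, was the other that fell, by 1.14 (edgeR quasi-likelihood test, adjusted p = 4.17e-13). Mapk8 and Mapk9, the JNK kinases, were at -0.06 and -0.87 and were not called (edgeR quasi-likelihood test, adjusted p = 0.595 and 1.87e-10). Fos had counts of 52 in WS against 146 in WD, and 89 in KS against 94 in KD, log2 ratios of 0.98 (WD over WS) and 0.02 (KD over KS), and an additive effect of 0.50 that did not pass (edgeR quasi-likelihood test, adjusted p = 0.107). The adaptor Shc1 was at 0.74, below the fold threshold (edgeR quasi-likelihood test, adjusted p = 1.07e-07).

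Markers of cells that make or answer TGF-β also differed with surgery. Of 11 macrophage markers tested, 4 rose (Adgre1, Cd68, Itgam and Mrc1) and 1 fell (Mertk), where 6.84% of all genes rose and 6.24% fell. The 11 summed to 39.2 CPM (WS) and 77.6 (WD) in WT and 40.5 (KS) and 77.0 (KD) in Fgf21KO, beside the rise of Tgfb1 and Tgfbr1. The call of Itgam rests on the Fgf21KO pair, with 11 reads in KS and 65 in KD, as its log2 ratio was 0.01 in WT. The 11 markers of fibro-adipogenic progenitors, the main matrix-making cells of muscle, summed to 366 CPM in sham and 282 in denervated muscle of WT, 403 and 265 in those of Fgf21KO, with 2 that fell and 9 not called. Pdgfra, the defining marker of these cells that the study followed, had counts of 208, 221, 289 and 243 in that order and an additive effect of -0.35 (edgeR quasi-likelihood test, adjusted p = 0.0505). The 9 endothelial markers summed to 650 CPM in WS against 293 in WD, and 535 in KS against 289 in KD, and the 5 mural markers analysed to 705, 293, 647 and 288 CPM, beside the lower Eng, Acta2, Tagln and Smad7. Only 2 of 6 satellite cell markers were analysed, of which 1 rose (Sdc4, 17.2 CPM in WS and 55.0 in WD) and 1 fell (Heyl, 13.0 and 6.28). They summed to 30.2 CPM in WS and 61.2 in WD, and to 29.9 in KS and 54.4 in KD. The higher sums after denervation thus came from Sdc4 alone. Only markers present in the count table could be counted, and why the other listed markers are absent is not given in the sources used here. Absence was not read as a lack of expression, since Acta1 and Ckm of the muscle fibre list are also absent. The part of the markers in the values of the 9 genes was not tested.

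**Figure D5:**
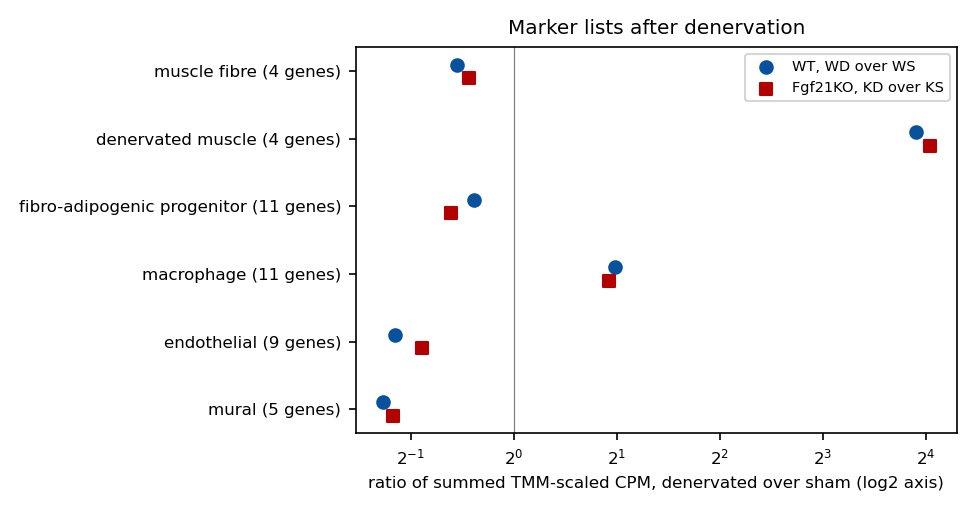
Ratio of the summed TMM-scaled CPM of each cell type marker list, denervated over sham (log2 axis), in WT and in Fgf21KO, with the number of genes summed. Macrophage markers lie near 2 in both genotypes (1.98 and 1.90), and the fibro-adipogenic progenitor, endothelial and mural lists lie below 1.

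Genes with the pattern most like that of Tgfb1 were sought among the 10179 genes whose counts averaged 100 or more, by the root mean square difference of log2 CPM, centred on each gene's mean, over the 4 libraries. The nearest were Pak1, a p21-activated kinase, at 0.033, Sytl2, a vesicle trafficking protein, at 0.048, and Chrd, an antagonist of BMP ligands, at 0.063. Pak1 had counts of 562 (WS) and 3001 (WD) in WT and 584 (KS) and 2357 (KD) in Fgf21KO. Within a difference of 0.1 there were 7 genes for Tgfb1 but 60 for Ccn2, whose nearest were Rbak at 0.019, Zfp942 at 0.030 and 2010315B03Rik at 0.033. These 2 counts depend on the size of the denervation ratios, as few of all genes had ratios as large as those of Tgfb1. They therefore do not compare how particular the 2 patterns are, and they only describe 4 libraries.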

How the data were processed

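RNA from TA muscle was extracted with the RNeasy kit and libraries were made with the TruSeq Stranded mRNA kit, 1 per group from 4 pooled muscles. The authors deposited unnormalized read counts for 13825 genes, each with at least 1 read in every library. A second deposited table, named for FPKM, holds log2 values: each value is a count scaled by a single library factor, raised by 1 and put on the log2 scale, with no length term, and the table served as an alternative. The submitters' processing notes name GRCm39 and FastQC. The aligner, counter, annotation and use of strand are not given in the sources used here. The study's methods name edgeR with an adjusted p and a fold threshold.

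Of these, 13084 genes averaged 10 or more reads over the libraries and were scaled by TMM and given as log2 CPM with a prior count of 2, in R 4.3.3 with edgeR 4.0.16. Intervals (95%) for ratios of 2 libraries and for shares are exact binomial, and those for levels are exact Poisson. Those for the difference between genotypes in the denervation log2 ratio use a normal approximation. All cover counting error only. The quasi-likelihood test was run on an additive model of denervation and genotype, whose common biological coefficient of variation was 0.068 and whose 1 residual degree of freedom is the interaction. Alternatives were DESeq2 1.42.0, other scalings, filters, prior counts and folds, and the deposited log2 table. Exon lengths came from GENCODE M21 (GRCm38) and upstream windows from RefSeq (GRCm38.p6), and positions are of those builds, not that of the counts. By M21, exons of Tgfb2, Tgfb3 and Ccn2 overlap antisense genes, at 2.14% of the bases of Tgfb2 and up to 7.60% for a single gene at Tgfb3. Python 3.11.15, scipy 1.17.1 and matplotlib 3.10.9 were used.

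The 9 genes, the lists and the tests were chosen with earlier results of these data known. Named beside them are Jun, Fos, Mapk8, Mapk9 and Pdgfra, which the study followed, the 2 highest and 2 lowest genes of each pathway list by mean denervation log2 ratio, listed genes 2-fold apart between genotypes, and the 3 genes nearest in pattern to Tgfb1 and to Ccn2. Any other gene in the text was named after its values were seen. Some other results are not reported here.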

Additional observations from a re-analysis of the deposited data

Results flagged for a closer look

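Postn moved in opposite directions with denervation in the 2 genotypes. The log2 ratio was -1.33 in WT (WD over WS, 95% counting interval -1.47 to -1.20) and 0.71 in Fgf21KO (KD over KS, 0.56 to 0.87), a difference of 2.05. This difference was not tested, as each group was 1 library. Summed markers of fibro-adipogenic progenitors, which express Postn, were lower after denervation in both genotypes, at 0.768 and 0.657 times the sham level, and their part in the Postn values was not tested.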

How the results depend on the processing

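No paired analysis was possible because only 1 library, a pool of muscles, was made per group. Leaving out a library was not possible either, as the model has 1 residual degree of freedom. Tgfb1 and Tgfbr1 kept their direction and passed 2-fold after denervation under each scaling, prior count, filter and tool tried. Scaling by total counts alone, which moved the median of all genes to 0.29 in WT and 0.36 in Fgf21KO, gave the 9 genes a median denervation log2 ratio of 0.58 for WT and 0.82 for Fgf21KO. With mitochondrially encoded genes left out of the totals, the Fgf21KO median was 0.62. Under total counts the ratio of Ccn2 in WT was 0.04, that of Smad7 in Fgf21KO -0.03 and that of Tgfb3 in Fgf21KO 1.13, past 2-fold. At 1.5-fold, 4 of the 9 genes differed in WT and 4 in Fgf21KO, and with no fold threshold the additive model called 8 for denervation. Over all genes, the additive model called 23 for genotype, 13 with DESeq2's Wald test, 15 at a mean count of at least 50 and 88 with no fold threshold, and 7003 rather than 1711 for denervation with no fold threshold. The count of all genes at least 2-fold apart was 1936 (WD over WS), 1780 (KD over KS), 267 (KS over WS), 203 (KD over WD) and 538 (difference of ratios), against 1188, 1117, 29, 25 and 65 on the deposited log2 table and 4545, 4429, 997, 774 and 1568 at 1.5-fold. At a mean count of at least 50 the last 3 were 68, 46 and 152. Of the listed pathway genes, 3 were 2-fold apart between the sham libraries, against 6 at 1.5-fold and 1 on the log2 table or where a mean of 50 reads was required. The alternative of exon length by the basic annotation was chosen after seeing the data. Counting error limits Smad7, Tgfb1 and Ccn2 most among the 9 genes, as the least counted.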
